A study of Homo sapiens with 27 samples.

Results

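Thin bipyramids of calcium oxalate dihydrate (COD), labelled TN, were compared with plates of calcium oxalate monohydrate, labelled COM, by RNA sequencing of MCF10DCIS.com cultures. The comparison takes the 4 libraries titled TN A to D and the 4 titled COM A to D, 8 of the 27 libraries of the series. The 7 untreated libraries, Control A to G, are given beside them. MCF10DCIS.com is a human breast epithelial line of the MCF10A family, labelled breast premalignant, which forms lesions resembling ductal carcinoma in situ in mice. It is a single cell line, so the values say nothing of other breast cells. Flasks received 500000 cells and, 6 h later, crystals at 0.1 mg/mL for both TN and COM, while the Control group is labelled as untreated with crystals. How long the cells stayed with the crystals is not stated in these sources. TN and COM differ both in hydrate and in crystal shape, and which of these goes with a difference cannot be told apart here.

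Calcium oxalate is one of the minerals of breast microcalcifications, where it is found mainly as the dihydrate, while the monohydrate is the common form in kidney stones. Epithelial cells exposed to such crystals are known to release inflammatory cytokines. Matrix metalloproteinases cut collagens, laminins and other matrix proteins. Plasmin, formed from plasminogen by tissue and urokinase activators and held back by serpin inhibitors, activates several of these proteases. Laminins of the basement membrane anchor basal epithelial cells through integrins.

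Total expected counts per library ran from 13707174 to 38672448 for TN, from 13352559 to 29912736 for COM and from 13963705 to 32537829 for Control. At these depths a count of 0, taken as up to 3 counts, allows at most 0.225 CPM (counts scaled to a common library size) in any of the 8 libraries, for counting error only. The libraries fall into 3 sets by the serial numbers of their deposited names. TN A, TN B, COM A and COM B belong to set 1, TN C and COM C to set 2, and TN D and COM D to set 3. TN C had a mean fragment length of 297.0 nt, unlike other libraries of set 2, so its place there is uncertain. Fragment lengths ran from 215.4 to 297.0 nt for TN and from 217.7 to 270.3 nt for COM, and their part in the results was not tested. The labels do not say whether the 4 libraries of a form are separate cultures. The p-values therefore reflect the spread among these samples alone, and that spread may be technical. The basal mammary markers KRT5 and TP63 were expressed in all 8 libraries. The luminal marker list summed to 3984.5 to 5221 CPM with TN and 3332 to 3966 CPM with COM, mostly from KRT8 and KRT18. Over the 8 libraries KRT8 was at 1363.5 to 2512 CPM and KRT18 at 1302 to 2061 CPM. Other members of the list were low, with KRT19 at 0.828 to 5.51, MUC1 at 2.04 to 6.53 and ESR1 at 1.81 to 2.48 CPM. The progesterone receptor gene PGR was at 0 in all 8.

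Library TN B also held transcripts of liver. The 20 hepatocyte markers summed to 153.6, 1702, 117.3 and 181.0 CPM in TN A to D, against 137.4 to 238.4 CPM in COM and 119.6 to 212.3 CPM in Control. All 20 had at least 1 count in TN B. ALB, which encodes the plasma protein albumin, stood at 0.0278, 659, 0.0571 and 0.956 CPM in TN A to D, against 0.107, 0.233, 0.270 and 2.97 CPM in COM A to D. The highest ALB level in the other 26 libraries of the series was 8.82 CPM. TF, which encodes the iron carrier transferrin, reached 234 CPM in TN B, against 1.998 to 3.90 CPM in the other TN libraries and 1.86 to 3.47 CPM in COM. LYZ, the lysozyme gene of the leukocyte list, was at 58.6 CPM in TN B and below 1 CPM in the other 7. The leukocyte list of 10 genes also holds HBB, a globin gene of red blood cells. On that list 4 of 10, PTPRC, FCGR3A and HBB among them, were at 0 in all 8 libraries. The fibroblast list summed to 29.1 to 32.9 CPM with TN and 28.97 to 38.9 CPM with COM, and the endothelial list to 4.08 to 11.2 CPM with TN and 4.08 to 13.95 CPM with COM. Of 11 hepatocyte markers tested, 8 were called higher with TN, and 0 without TN B. The values below without TN B serve to set that library aside.

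**Figure D1:**
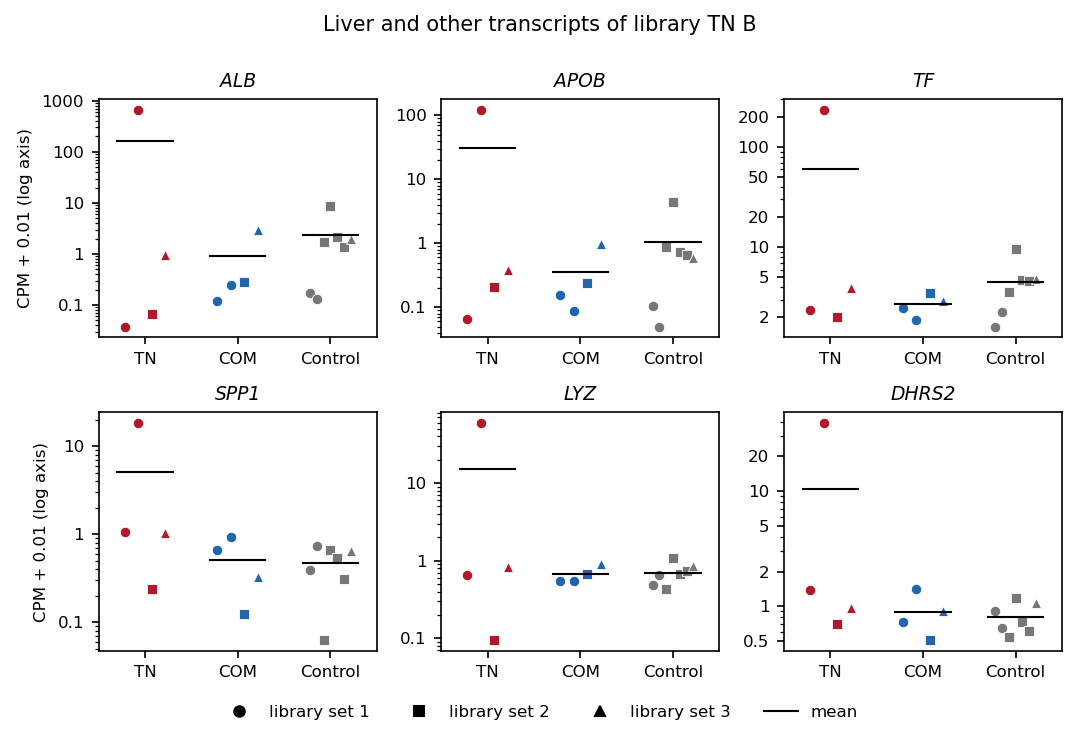
Levels of 6 transcripts in CPM plus 0.01 on a log axis, in 4 TN, 4 COM and 7 Control libraries. Each point is 1 library, the symbol gives its library set and the line the group mean. TN B, a set 1 library, stands alone at the top of every panel, at 659 CPM for ALB, and the other 3 TN libraries lie within or near the range of COM and Control.

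Across 16173 genes tested, 814 were called as different between TN and COM at a Benjamini-Hochberg adjusted p under 0.05. Of these, 424 were higher with TN (2.62% of the genes tested) and 390 lower (2.41%). Without TN B, 458 of 16401 genes were called, 266 higher (1.62%) and 192 lower (1.17%). The calls shared by both fits numbered 397, which is 48.8% of the first list and 86.7% of the second, and 801 of the 814 kept their sign. In 715 of the 814 the TN mean lay on one side of the COM mean within each of the 3 library sets. Most changes were small, since 70 of the 814 exceeded 1 on the log2 scale, 24 higher and 46 lower. Without TN B, 3 of those 24 and 28 of those 46 were still called. The libraries of both forms did not overlap for 750 genes, 460 with TN above COM (2.84%) and 290 with TN below COM (1.79%). The median half-width of the 95% interval over all genes was 0.24 on the log2 scale.

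The count of calls depended on single libraries. It was 172, 458, 1708 and 958 without TN A, B, C or D, and 152, 189, 814 and 709 without COM A, B, C or D. Of 92 called genes picked for naming, 87 by the rule and 5 by the same rule applied without TN B, 31 stayed called with each of the 8 libraries left out in turn, 17 lower and 14 higher with TN. The calls also depended on the library set term. With no such term 109 genes were called, 24 of the 92 and 14 of those 31 among them. The difference itself depended on the library set for 30 genes at adjusted p under 0.05 (1672 at an unadjusted p under 0.05). Of these, 24 were among the 814, and all 24 differed most in set 1. For MMP10, the Controls of set 2 were at 2.99 to 4.99 CPM and those of sets 1 and 3 at 21.2 to 23.8 CPM, so its level followed the library set in untreated cells too. The Controls of set 2 were likewise lower for MMP1, at 14.3 to 19.8 against 61.4 to 75.2 CPM. For SERPINB2 they were at 7.22 to 10.6 against 33.4 to 35.9 CPM.

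Several matrix-cutting enzymes were lower with TN than with COM. Of 15 measured metalloproteinases and inhibitors, 6 fell with TN, none rose and 9 were not called, against a background of 2.41% of genes lower. The 6 were MMP9, MMP10, MMP1, MMP28, MMP2 and TIMP1, the last an inhibitor of these proteases rather than a protease. The median log2 difference of the list was -0.22, beside -0.0010 over all genes tested. The number called was 4, 5, 7 and 8 without TN A to D in turn, and 3, 5, 7 and 6 without COM A to D in turn, and 1 with no library set term. MMP9, a gelatinase that cuts denatured collagen and basement membrane collagen (chromosome 20, 46008908 to 46016561, plus strand), was at 0.390, 0.626, 1.23 and 0.441 CPM in TN A to D, against 11.3, 16.999, 2.70 and 10.7 CPM in COM A to D. All 4 TN libraries lay below all 4 COM libraries, and COM C was the lowest of the COM libraries. The log2 difference was -3.54 (SE 0.47, adjusted p = 0.00077), and -4.58, -1.08 and -4.35 within library sets 1, 2 and 3. Levels in Control were 0.454 to 2.26 CPM with a median of 1.19. Against Control the MMP9 log2 difference was -0.97 for TN (SE 0.45, adjusted p = 0.16) and 2.56 for COM (SE 0.38, adjusted p = 0.00011).

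MMP10, a stromelysin, cuts proteoglycans and laminins and helps activate other metalloproteinases (chromosome 11, 102770503 to 102780628, minus strand). It was at 4.45, 7.05, 4.25 and 12.6 CPM in TN A to D, against 41.5, 45.3, 5.51 and 32.9 CPM in COM A to D. COM C lay among the TN libraries and the other 3 COM libraries lay above all TN libraries, so the groups overlapped through COM C. The log2 difference was -1.94 (SE 0.30, adjusted p = 0.0016), and -2.93, -0.37 and -1.38 within library sets 1, 2 and 3. MMP1, the interstitial collagenase that cuts fibrillar collagen (chromosome 11, 102789920 to 102798160, minus strand), was at 11.4, 21.5, 16.7 and 35.6 CPM in TN A to D, against 128, 117, 19.7 and 87.01 CPM in COM A to D. Again COM C lay within the TN range and the other COM libraries lay above it. Its log2 difference was -1.79 (SE 0.31, adjusted p = 0.0028). MMP9, MMP10 and MMP1 were each called with any 1 of the 8 libraries left out, with log2 differences of -4.58 to -3.17, -2.33 to -1.61 and -2.23 to -1.44 and adjusted p of at most 0.0085, 0.018 and 0.021. With no library set term MMP9 was called (adjusted p = 0.0053), and MMP10 and MMP1 were not (adjusted p = 0.11 and 0.078). The difference of all 3 varied with the library set (adjusted p = 0.027 for MMP9 and MMP10 and 0.043 for MMP1). MMP28, a secreted epithelial metalloproteinase, differed by -0.95 (SE 0.19, adjusted p = 0.0062) and MMP2, the other gelatinase, by -0.53 (SE 0.12, adjusted p = 0.01). MMP28 was not called without TN A or COM A (adjusted p up to 0.053) and MMP2 not called without COM A (adjusted p up to 0.069). TIMP1 differed by -0.67 (SE 0.18, adjusted p = 0.028), but was not called without TN A, TN B, COM A or COM B (adjusted p up to 0.17). MMP14, the membrane-bound activator of MMP2, averaged 258 ± 48.7 CPM with TN and 300.1 ± 43.3 CPM with COM (SD, n = 4 each) and was not called, at a log2 difference of -0.22 (95% interval -0.37 to -0.083, adjusted p = 0.055).

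The promoter of MMP10 is shown because it is a called member whose start site is in the RefSeq table of GRCh38.p14. The 200 bases before the start site, on the minus strand of chr11:102780629-102780828, read 5′ to 3′ with motif matches in capitals.
MMP10: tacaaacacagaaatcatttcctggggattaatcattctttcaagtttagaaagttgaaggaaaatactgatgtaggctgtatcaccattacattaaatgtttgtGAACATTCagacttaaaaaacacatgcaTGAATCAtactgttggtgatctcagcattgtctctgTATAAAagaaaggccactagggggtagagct
The capitals mark GAACATTC, a match of the heat shock element GAANNTTC at 95 bases before the start, TGAATCA, a match of the AP-1 motif TGANTCA at 67 bases before it, and TATAAA at 31 bases before it. Both strands were searched from 250 bases before to 50 after each start site. In such windows TGANTCA was found for 9.37%, GAANNTTC for 8.21% and TATAAA for 14% of the 27305 genes of the table. These matches describe the sequence and are no evidence of binding. The MMP10 promoter was picked after its values were seen.

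Several genes of plasminogen activation were lower with TN as well. Of 10 measured members 5 fell, none rose and 5 were not called, against 2.41% of all genes called lower. The median log2 difference was -0.36. Members called numbered 3, 3, 6 and 5 without TN A to D in turn, and 3, 3, 5 and 6 without COM A to D in turn, and 1 with no library set term. PLAT, the tissue plasminogen activator, was at 411, 472, 431 and 766 CPM in TN A to D, against 1101, 1017, 511 and 1022 CPM in COM A to D. TN D was above COM C and the other TN libraries were below every COM library. The PLAT difference was -0.79 (SE 0.13, adjusted p = 0.002). SERPINB2, the type 2 plasminogen activator inhibitor (chromosome 18, 63871692 to 63903890, plus strand), was at 20.9, 30.1, 11.4 and 34.6 CPM in TN A to D, against 93.7, 99.7, 13.2 and 62.4 CPM in COM A to D, with COM C inside the TN range, and differed by -1.25 (SE 0.22, adjusted p = 0.0031). PLAT and SERPINB2 remained called with any 1 library left out, at adjusted p of at most 0.021 and 0.026. LRP1, the receptor that clears activator and inhibitor complexes, differed by -0.59 (SE 0.15, adjusted p = 0.026) and PLAUR, the urokinase receptor, by -0.42 (SE 0.11, adjusted p = 0.029). Each was not called without TN A, TN B, COM A or COM B, at adjusted p of up to 0.18 for LRP1 and 0.18 for PLAUR. PLAU, the urokinase activator itself, averaged 218 ± 18.2 CPM with TN and 264 ± 57.1 CPM with COM and was not called, at a log2 difference of -0.26 (95% interval -0.46 to -0.054, adjusted p = 0.13).

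**Figure D2:**
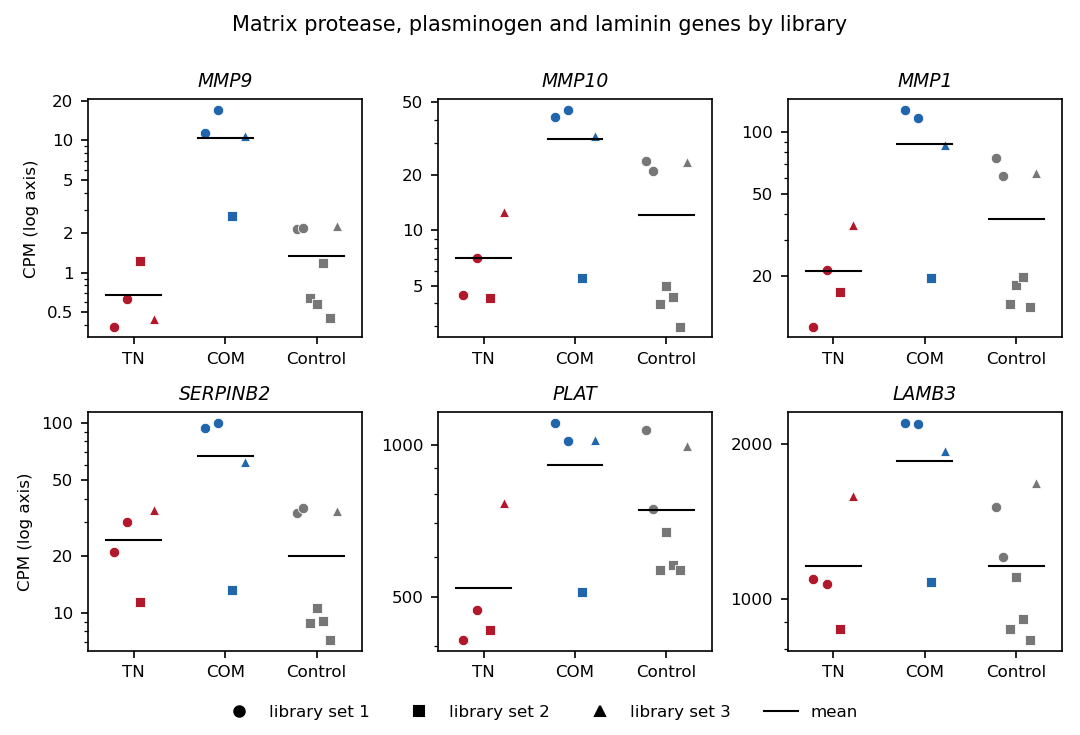
Levels in CPM on log axes of 6 genes that were lower with TN, in 4 TN, 4 COM and 7 Control libraries. Each point is 1 library, the symbol gives its library set and the line the group mean. For MMP9 the TN libraries lie at 0.390 to 1.23 CPM and the COM libraries at 2.70 to 16.999 CPM, and the set 2 library is the lowest of the COM libraries in every panel.

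Laminin chains of the basement membrane were lower with TN. Of 11 measured laminin and basement membrane genes 3 fell, LAMB3 and LAMA3 among them, none rose and 8 were not called. By comparison, 2.41% of all genes were called lower. The list median was -0.24 on the log2 scale, and the number called was 3, 3, 5 and 5 without TN A to D in turn, and 3, 2, 3 and 3 without COM A to D in turn, and 0 with no library set term. LAMB3, a laminin beta chain (chromosome 1, 209614870 to 209652466, minus strand), was at 1094, 1069.7, 872 and 1587 CPM in TN A to D, against 2193, 2186, 1079 and 1939 CPM in COM A to D. COM C lay within the TN range and the other COM libraries above it. Its difference was -0.67 (SE 0.12, adjusted p = 0.004), and it kept its call with any library left out (adjusted p of at most 0.032). LAMA3, a laminin alpha chain, averaged 572 ± 199 CPM with TN and 888 ± 312 CPM with COM and differed by -0.61 (SE 0.13, adjusted p = 0.0072), but was not called without COM B (adjusted p up to 0.0504). The LAMA3 difference varied with library set (adjusted p = 0.038), being -1.03, -0.15 and -0.20 within library sets 1, 2 and 3. Among 11 integrin subunits, receptors for such matrix, ITGB5 and ITGB4 fell (2.41% of all genes called lower), none rose and 9 were not called. ITGB5 pairs with the alpha v chain to bind vitronectin, and differed by -0.41 (SE 0.090, adjusted p = 0.01), though not called without TN A or COM A (adjusted p up to 0.074). ITGB4, the hemidesmosome subunit that binds laminin, averaged 4186 ± 888 CPM with TN and 5751 ± 1014 CPM with COM (SD, n = 4 each) and differed by -0.44 (SE 0.13, adjusted p = 0.046). It was not called without TN A, TN B, COM A or COM B (adjusted p up to 0.26), and its difference varied with library set (adjusted p = 0.015).

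Small proline-rich proteins, which are cross-linked into the envelope of keratinizing cells, were also lower with TN. Of 22 measured cornified envelope and epidermal differentiation genes, 4 fell, none rose and 18 were not called, against 2.41% of all genes called lower. The list median was -0.23. Counts of called members were 3, 5, 6 and 4 without TN A to D in turn, and 3, 3, 5 and 4 without COM A to D in turn, and 0 with no library set term. SPRR2A was at 14.2, 23.2, 8.56 and 23.5 CPM in TN A to D, against 57.5, 67.6, 14.3 and 37.2 CPM in COM A to D, and differed by -1.24 (SE 0.22, adjusted p = 0.0034). COM A, B and D were above every TN library and COM C was not. SPRR2D, a near-identical neighbour whose reads may be shared with SPRR2A so that both are uncertain, differed by -1.02 (SE 0.19, adjusted p = 0.0037). SBSN, suprabasin, which is made in differentiating epidermis, differed by -1.35 (SE 0.26, adjusted p = 0.0049) at a low 1.93 ± 0.688 CPM with TN and 5.23 ± 2.32 CPM with COM (SD, n = 4 each). These 3 were called with any library left out, at adjusted p of at most 0.026, 0.033 and 0.037. SPRR1B differed by -1.18 (SE 0.27, adjusted p = 0.013), but was not called without TN A, COM A or COM B (adjusted p up to 0.098). IVL, involucrin, the scaffold of the envelope, averaged 11.4 ± 5.36 CPM with TN and 17.2 ± 9.43 CPM with COM and was not called, at a log2 difference of -0.54 (95% interval -0.89 to -0.20, adjusted p = 0.055).

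Keratins moved in both directions. Of 14 measured, KRT6A and KRT16 fell, KRT80, KRT18 and KRT8 rose and 9 were not called. Of all genes tested, 2.62% were called higher and 2.41% lower. The number called higher was 0, 1, 4 and 3 without TN A to D in turn, and 0, 0, 2 and 1 without COM A to D in turn, and 1 with no library set term. KRT6A, a keratin of activated and wounded epithelium that has near-identical copies, was at 50.2, 55.3, 31.1 and 73.9 CPM in TN A to D, against 109, 127, 44.8 and 113 CPM in COM A to D. It differed by -0.89 (SE 0.16, adjusted p = 0.0034) and was called with any library left out (adjusted p of at most 0.026). KRT16, its partner keratin, which has similar pseudogene copies, differed by -0.47 (SE 0.14, adjusted p = 0.047) and was not called without TN A, TN B, TN D, COM A, COM B or COM D (adjusted p up to 0.18). KRT18 and KRT8 form the filament pair of simple and luminal epithelium. KRT18 (chromosome 12, 52948871 to 52952901, plus strand) was at 2061, 1948, 1595 and 1547 CPM in TN A to D, against 1518, 1425, 1432 and 1302 CPM in COM A to D, and no TN library fell to the COM range. Its difference was 0.33 (SE 0.086, adjusted p = 0.027), but it was not called without TN A, TN B, COM A, COM B or COM D (adjusted p up to 0.16). KRT8 differed by 0.33 (SE 0.093, adjusted p = 0.04), and was not called without TN A, TN B, COM A, COM B, COM C or COM D (adjusted p up to 0.23). KRT80, a keratin of differentiating epithelia, differed by 0.46 (SE 0.11, adjusted p = 0.013) and was not called without TN A, COM A or COM B (adjusted p up to 0.11). The basal keratin KRT5 averaged 2516 ± 343 CPM with TN and 2227 ± 338 CPM with COM (SD, n = 4 each) and was not called, at a log2 difference of 0.18 (95% interval 0.039 to 0.32, adjusted p = 0.13). Of 9 measured luminal markers 2 rose (KRT18 and KRT8), and of 10 basal markers 3 fell (LAMA3, CD44 and ITGB4). Shares over all genes were 2.62% higher and 2.41% lower. All 9 luminal markers had a positive log2 difference, but so did 3 of the 10 basal markers, CAV1 (0.23), KRT5 (0.18) and TP63 (0.013). Without TN B, 0 luminal markers and 1 basal marker were called. CD44, a hyaluronan receptor, differed by -0.32 (SE 0.088, adjusted p = 0.037) and was not called without TN A, TN B, COM A or COM B (adjusted p up to 0.2). In bulk RNA, fewer cells of one kind and less RNA per cell cannot be told apart.

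Genes of DNA replication were higher with TN than with COM. Of 22 measured replication and G1/S genes, 16 rose, none fell and 6 were not called, against 2.62% of all genes called higher. All 22 had a positive log2 difference, with a median of 0.40 and a range of 0.15 to 0.59, and 15 had no overlap between TN and COM libraries (2.84% of all genes). Within sets 1, 2 and 3 the median was 0.58, 0.22 and 0.18. The number called was 4, 12, 19 and 16 without TN A to D in turn, and 5, 6, 14 and 16 without COM A to D in turn, and 5 with no library set term. RRM2, the regulated subunit of ribonucleotide reductase, which makes the deoxynucleotides for DNA (chromosome 2, 10120698 to 10131419, plus strand), was at 322, 244, 223 and 194 CPM in TN A to D, against 166, 175, 187 and 162 CPM in COM A to D. TN A was the highest and every TN library exceeded every COM library. The difference was 0.50 (SE 0.095, adjusted p = 0.0046). UHRF1, which brings the maintenance DNA methyltransferase to replicated DNA (chromosome 19, 4903080 to 4962154, plus strand), was at 97.8, 82.98, 73.8 and 93.9 CPM in TN A to D, against 53.5, 60.1, 61.7 and 71.1 CPM in COM A to D, again without overlap, and differed by 0.51 (SE 0.098, adjusted p = 0.0049). MCM5, a subunit of the replicative helicase, averaged 128 ± 11.99 CPM with TN and 97.8 ± 6.06 CPM with COM (SD, n = 4 each) and differed by 0.40 (SE 0.077, adjusted p = 0.005). RRM2, UHRF1 and MCM5 remained called with any library left out, at adjusted p of at most 0.034, 0.037 and 0.037. PCNA, the sliding clamp of DNA polymerase, was at 227, 188, 158 and 133 CPM in TN A to D, against 129, 120.0, 111 and 121 CPM in COM A to D and differed by 0.53 (SE 0.12, adjusted p = 0.01). TYMS, thymidylate synthase, differed by 0.34 (SE 0.074, adjusted p = 0.01) and CDC6, a loader of the helicase, by 0.52 (SE 0.14, adjusted p = 0.026). PCNA was not called without TN A, COM A or COM B (adjusted p up to 0.075), TYMS not called without TN A or COM B (adjusted p up to 0.075) and CDC6 not called without TN A, COM A or COM B (adjusted p up to 0.19). CDT1, the other helicase loader, averaged 59.5 ± 8.58 CPM with TN and 53.6 ± 6.81 CPM with COM and was not called, at a log2 difference of 0.15 (95% interval -0.049 to 0.35, adjusted p = 0.43).

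Mitosis genes moved the same way. Of 22 measured mitosis and cytokinesis genes 15 rose, none fell and 7 were not called, against 2.62% of all genes called higher. The median was 0.32 and all 22 were above 0. Of the 22, 2 genes, CDC20 and AURKB, had no overlap between the libraries of both forms, with TN above COM (2.84% of all genes). Members called numbered 4, 12, 12 and 16 without TN A to D in turn, and 4, 5, 16 and 11 without COM A to D in turn, and 1 with no library set term. CDC20, an activator of the anaphase-promoting complex (chromosome 1, 43358955 to 43363203, plus strand), was at 179.8, 171, 165 and 137 CPM in TN A to D, against 115, 119, 133 and 115 CPM in COM A to D. Its difference was 0.44 (SE 0.088, adjusted p = 0.0061). CCNB1, a mitotic B-type cyclin (chromosome 5, 69167010 to 69178245, plus strand), was at 201, 183, 191 and 151 CPM in TN A to D, against 144, 131, 161 and 133 CPM in COM A to D. TN D lay below COM C and the other TN libraries were above all COM libraries. CCNB1 differed by 0.35 (SE 0.067, adjusted p = 0.0049) and TPX2, a spindle assembly factor, by 0.37 (SE 0.071, adjusted p = 0.0049). CDC20, CCNB1 and TPX2 were called with any library left out, at adjusted p of at most 0.044, 0.039 and 0.041. MKI67, the gene of a widely used proliferation marker, averaged 301 ± 57.97 CPM with TN and 256 ± 32.9 CPM with COM (SD, n = 4 each) and was not called, at a log2 difference of 0.22 (95% interval -0.058 to 0.51, adjusted p = 0.4). Against Control, the median over the replication list was 0.19 for TN minus Control and -0.20 for COM minus Control, with 7 members called higher for TN and 4 called lower for COM. Over the mitosis list it was 0.045 for TN minus Control and -0.29 for COM minus Control, with 1 member called lower for TN and 10 called lower for COM. Over all 16173 genes tested, 1107 were called higher and 789 lower for TN, and 638 higher and 391 lower for COM. These comparisons share the 7 Control libraries.

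Promoters of a replication and a mitosis gene are shown because the members of both lists were higher together. RRM2 and UHRF1, and CCNB1 and CDC20, had the smallest p among called members of their list with an entry. Of these, UHRF1 and CDC20 are printed because their windows held a motif match. The first is UHRF1, chr19:4909944-4910143, and the second CDC20, chr1:43358781-43358980, both on the plus strand of GRCh38.p14 from RefSeq. Each is given 5′ to 3′ as the 200 bases before a start site, with motif matches in capitals. For UHRF1, which has several RefSeq start sites, it is the one whose window holds the match.
UHRF1: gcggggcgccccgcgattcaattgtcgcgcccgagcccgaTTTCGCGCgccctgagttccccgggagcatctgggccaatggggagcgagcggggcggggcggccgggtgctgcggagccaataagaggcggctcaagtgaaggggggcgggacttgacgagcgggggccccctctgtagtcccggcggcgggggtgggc
CDC20: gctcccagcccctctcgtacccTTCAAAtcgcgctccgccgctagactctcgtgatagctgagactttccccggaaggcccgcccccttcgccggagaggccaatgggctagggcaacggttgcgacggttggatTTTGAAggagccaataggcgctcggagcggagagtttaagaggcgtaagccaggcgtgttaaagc
The capitals in UHRF1 mark TTTCGCGC, an E2F-type sequence 160 bases before the start. Those in CDC20 mark TTTGAA, the core of the cell cycle homology region, at 65 bases before the start, and its reverse complement TTCAAA at 178 bases before it. In windows from 250 bases before to 50 after the start, on either strand, TTTGGCGC or TTTCGCGC was found for 382 of 27305 genes (1.4%). One of them was held by 9 of the 19 replication genes with an entry (47.4%) and by 1 of the 18 mitosis genes. TTTGAA was found for 18.2% of the 27305 genes, for 12 of the 18 mitosis genes (66.7%) and for 1 of the 19 replication genes. These counts take every measured list member with an entry, called or not. They describe how the lists are made up and do not bear on the difference between TN and COM. The windows of RRM2 and CCNB1 held none of the 8 motifs searched. These 3 motifs were chosen after the list results were known, and a match shows letters, not binding.

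**Figure D3:**
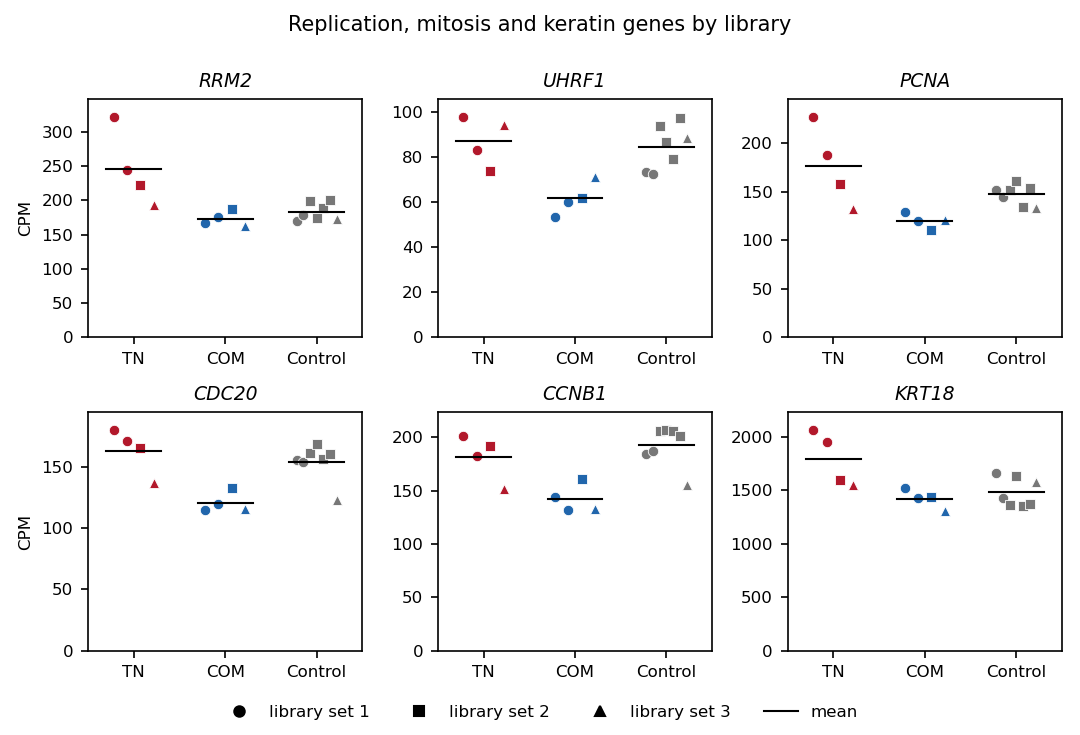
Levels in CPM of 6 genes that were higher with TN, in 4 TN, 4 COM and 7 Control libraries, on linear axes from 0. Each point is 1 library, the symbol gives its library set and the line the group mean. TN A reaches 322 CPM for RRM2, where the COM libraries lie between 162 and 187 CPM.

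Most inflammatory genes were not called between the forms, and those called were lower with TN. Of 21 measured NF-kB targets and cytokines 4 fell with TN, none rose and 17 were not called, with a median of -0.12. The share of all genes called lower was 2.41%. Counts of called members were 1, 2, 4 and 2 without TN A to D in turn, and 1, 0, 4 and 4 without COM A to D in turn, and 0 with no library set term. Against the same 7 Controls, 16 of the 21 were called higher for TN and 16 for COM. Of all 16173 genes tested, 1107 were called higher for TN and 638 for COM. The median log2 difference of the list was 0.65 for TN minus Control and 0.74 for COM minus Control. PTGS2, the prostaglandin-forming inducible cyclooxygenase, was at 65.2, 53.6, 62.2 and 40.5 CPM in TN A to D, against 59.4, 84.5, 51.2 and 49.6 CPM in COM A to D, and 13.1 to 23.6 CPM in Control. The TN and COM ranges overlapped widely and both lay above the Control range. The difference between the forms was -0.14 (95% interval -0.45 to 0.17, adjusted p = 0.68). CXCL8, a chemokine that attracts neutrophils, averaged 249 ± 75.03 CPM with TN and 290.2 ± 82.6 CPM with COM (SD, n = 4 each) and differed by -0.21 (95% interval -0.46 to 0.045, adjusted p = 0.38). IL1B, the cytokine interleukin-1 beta (chromosome 2, 112829751 to 112836903, minus strand), was at 211, 204, 118 and 234 CPM in TN A to D, against 388, 401, 118 and 246 CPM in COM A to D. TN C and COM C were nearly equal and COM A and B were the highest. IL1B differed by -0.51 (SE 0.15, adjusted p = 0.044), with -0.93, -0.0026 and -0.070 within library sets 1, 2 and 3, and was not called without TN A, TN B, TN D, COM A or COM B (adjusted p up to 0.2). ICAM1, the adhesion molecule that binds leukocytes, was at 207, 194, 255 and 243 CPM in TN A to D, against 305, 339.9, 305 and 284 CPM in COM A to D without overlap and differed by -0.47 (SE 0.10, adjusted p = 0.0093), though not called without COM B (adjusted p up to 0.059). NFKBIZ, an inducible nuclear regulator of NF-kB, differed by -0.51 (SE 0.11, adjusted p = 0.0093) and was not called without TN A, COM A or COM B (adjusted p up to 0.059). LIF, a cytokine that signals through STAT proteins, differed by -0.31 (SE 0.084, adjusted p = 0.029) and was not called without TN A, TN B, TN D, COM A or COM B (adjusted p up to 0.18).

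Among 10 inflammasome and pyroptosis genes, IL1RN, TXNIP and IL1B fell and 7 were not called (median -0.24), against 2.41% of all genes called lower. The number called was 0, 1, 4 and 2 without TN A to D in turn, and 0, 0, 3 and 3 without COM A to D in turn, and 0 with no library set term. IL1RN, the natural antagonist of the interleukin-1 receptor, differed by -0.66 (SE 0.16, adjusted p = 0.017) and was not called without TN A, COM A or COM B (adjusted p up to 0.11). TXNIP, an inhibitor of thioredoxin and of glucose uptake, differed by -0.55 (SE 0.14, adjusted p = 0.025) and was not called without TN A, TN B, COM A or COM B (adjusted p up to 0.15). Among growth signalling genes, 3 of 19 immediate early genes fell with TN (EGR1, EGR3 and JUNB). None of the 19 rose and 16 were not called, against 2.41% of all genes called lower. The number called was 1, 1, 4 and 2 without TN A to D in turn, and 0, 1, 2 and 4 without COM A to D in turn, and 1 with no library set term. EGR1, a zinc finger factor induced within minutes by growth factors, was at 187, 147, 207 and 186 CPM in TN A to D, against 392, 323, 319.6 and 231 CPM in COM A to D, all TN below all COM. It differed by -0.81 (SE 0.18, adjusted p = 0.01) and was not called without COM A (adjusted p up to 0.071). JUNB, an AP-1 subunit, averaged 132 ± 4.96 CPM with TN and 184 ± 24.2 CPM with COM without overlap and differed by -0.49 (SE 0.15, adjusted p = 0.048), but was not called without TN A, TN B, TN D, COM A, COM B or COM C (adjusted p up to 0.24). EGR3 differed by -0.51 (SE 0.15, adjusted p = 0.045) and was not called without TN A, TN B, COM A or COM B (adjusted p up to 0.27). Of 18 ERK feedback and ETS targets MAFF, SPRY2 and LIF fell and 15 were not called, against the same 2.41%. Called members were 0, 1, 6 and 2 without TN A to D in turn, and 0, 0, 3 and 5 without COM A to D in turn, and 0 with no library set term. MAFF, a small partner of basic leucine zipper factors, differed by -0.38 (SE 0.093, adjusted p = 0.017) and was not called without TN A, COM A or COM B (adjusted p up to 0.096). SPRY2, a feedback inhibitor of receptor tyrosine kinases, differed by -0.38 (SE 0.10, adjusted p = 0.027) and was not called without TN A, TN B, COM A or COM B (adjusted p up to 0.15). Of 12 genes of the EGF receptor and its ligands, EREG and TGFA, both ligands, fell and 10 were not called, against the same 2.41%. EREG differed by -0.41 (SE 0.12, adjusted p = 0.046) and TGFA by -0.27 (SE 0.080, adjusted p = 0.047), and both were not called without TN A, TN B, TN D, COM A, COM B or COM C, at adjusted p of up to 0.18 and 0.23.

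Of 20 TGF-beta and SMAD targets 4 fell, INHBA, LTBP2 and PMEPA1 among them, none rose and 16 were not called. The median was -0.073, and 2.41% of all genes were called lower. Members called numbered 4, 3, 3 and 4 without TN A to D in turn, and 3, 3, 4 and 3 without COM A to D in turn, and 1 with no library set term. INHBA, the activin A subunit, was at 132, 154, 105 and 164 CPM in TN A to D, against 245, 304, 122 and 193 CPM in COM A to D, and differed by -0.59 (SE 0.11, adjusted p = 0.0049). LTBP2, a matrix protein of elastic fibres, averaged 33.3 ± 7.19 CPM with TN and 47.2 ± 12.9 CPM with COM (SD, n = 4 each) and differed by -0.48 (SE 0.097, adjusted p = 0.0061). Both were called with any library left out, at adjusted p of at most 0.039 and 0.046. PMEPA1, a membrane inhibitor of SMAD signalling, differed by -0.39 (SE 0.10, adjusted p = 0.028) and was not called without TN B, TN C, TN D, COM A, COM B or COM D (adjusted p up to 0.099). LOXL2, which cross-links collagen, was the 1 called member of 18 mesenchymal and matrix genes, at -0.53 (SE 0.11, adjusted p = 0.0061), and not called without COM A (adjusted p up to 0.052). VIM, the mesenchymal filament vimentin, averaged 897 ± 83.5 CPM with TN and 962 ± 133 CPM with COM and was not called, at a log2 difference of -0.091 (95% interval -0.31 to 0.13, adjusted p = 0.71). Of 23 desmosome and tight junction genes CLDN4, DSG3 and F11R fell and 20 were not called, against 2.41% of all genes called lower. Called members were 0, 0, 7 and 3 without TN A to D in turn, and 0, 0, 5 and 3 without COM A to D in turn, and 0 with no library set term. CLDN4, a claudin of tight junctions, differed by -0.42 (SE 0.11, adjusted p = 0.024), DSG3, a desmosomal cadherin, by -0.39 (SE 0.10, adjusted p = 0.023) and F11R, a junctional adhesion molecule, by -0.27 (SE 0.062, adjusted p = 0.013). Each was not called without TN A, TN B, COM A or COM B, at adjusted p of up to 0.16, 0.12 and 0.082. CDH1, E-cadherin, averaged 218 ± 19.4 CPM with TN and 255 ± 34.4 CPM with COM and differed by -0.22 (95% interval -0.37 to -0.063, adjusted p = 0.09).

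Most heat shock genes were not called between the forms. Of 22 measured, 21 had a positive log2 difference, with a median of 0.17. Those called higher were 3, none fell and 19 were not called, against 2.62% of all genes called higher. In 6 of the 22 every TN library was above every COM library (2.84% of all genes). Counts of called members were 0, 0, 7 and 3 without TN A to D in turn, and 0, 0, 4 and 1 without COM A to D in turn, and 0 with no library set term. CACYBP, a calcyclin-binding protein with a cochaperone-like domain, was at 203, 178, 168 and 158 CPM in TN A to D, against 135, 126, 153 and 147 CPM in COM A to D, without overlap, and differed by 0.34 (SE 0.093, adjusted p = 0.032). AHSA1, which speeds the chaperone cycle of HSP90 proteins, differed by 0.30 (SE 0.083, adjusted p = 0.039) and FKBP4, an HSP90 cochaperone of steroid receptors, by 0.25 (SE 0.071, adjusted p = 0.042). CACYBP was not called without TN A, TN B, COM A, COM B or COM C (adjusted p up to 0.21), AHSA1 was not called without TN A, TN B, COM A, COM B or COM D (adjusted p up to 0.21) and FKBP4 was not called without TN A, TN B, COM A, COM B or COM D (adjusted p up to 0.24). HSPA1A, an inducible chaperone with the near-identical neighbour HSPA1B, was at 32.5, 41.9, 31.9 and 52.8 CPM in TN A to D, against 42.5, 41.99, 23.5 and 51.7 CPM in COM A to D, and 67.6 to 126 CPM in Control. Its TN minus COM difference was 0.029 (95% interval -0.24 to 0.30, adjusted p = 0.94). Against Control the median of the list was -0.087 for TN minus Control and -0.29 for COM minus Control, with 7 members called lower and 1 higher for TN and 12 called lower for COM. Over all 16173 genes tested, 789 were called lower and 1107 higher for TN, and 391 lower for COM.

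Of 22 ATF4 and CHOP targets, 1 was called higher, CHAC2, and 21 were not called, with a median of 0.075. For this and the next 2 lists, the shares over all genes were 2.62% called higher and 2.41% lower. CHAC2, a glutathione-degrading enzyme, differed by 0.41 (SE 0.12, adjusted p = 0.049) and was not called without TN A, TN B, COM A, COM B or COM C (adjusted p up to 0.29). Its inducible relative CHAC1 averaged 34.4 ± 8.72 CPM with TN and 28.1 ± 4.30 CPM with COM (SD, n = 4 each), with 2.88 to 20.5 CPM in Control, and its difference between the forms was 0.31 (95% interval -0.32 to 0.94, adjusted p = 0.64). Of 20 NRF2 targets and glutathione genes 2 rose, GSR, glutathione reductase, among them, none fell and 18 were not called. GSR differed by 0.21 (SE 0.057, adjusted p = 0.031) and was not called without TN A, TN B, COM A, COM B or COM C (adjusted p up to 0.12). HMOX1, heme oxygenase, averaged 3.78 ± 1.02 CPM with TN and 3.02 ± 0.591 CPM with COM and was not called, at a log2 difference of 0.34 (95% interval -0.080 to 0.75, adjusted p = 0.39). Of 22 lysosome, autophagy and membrane damage genes, ATP6V0D1 and GLA rose, GABARAPL1 fell and 19 were not called. ATP6V0D1, a subunit of the proton pump of lysosomes, was at 62.6, 52.9, 43.7 and 45.6 CPM in TN A to D, against 37.96, 39.5, 37.2 and 38.04 CPM in COM A to D, without overlap. It differed by 0.42 (SE 0.090, adjusted p = 0.0087) and was not called without TN A (adjusted p up to 0.075). GLA, the lysosomal alpha-galactosidase, differed by 0.41 (SE 0.11, adjusted p = 0.024) and was not called without TN A, COM A, COM B or COM C (adjusted p up to 0.18). GABARAPL1, an autophagosome protein, differed by -0.50 (SE 0.10, adjusted p = 0.0062) and was not called without COM A (adjusted p up to 0.057).

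Most genes of calcium, oxalate and mineral handling were not called. Beside the counts below, 2.62% of all genes were called higher and 2.41% lower. Of 17 genes of calcium entry, stores and export, ATP2B4 fell and 16 were not called. ATP2B4, a plasma membrane pump that exports calcium, was at 109, 97.6, 125 and 155 CPM in TN A to D, against 168, 239, 136 and 188 CPM in COM A to D, and differed by -0.58 (SE 0.13, adjusted p = 0.011). It was not called without TN A, TN B or COM B (adjusted p up to 0.086). Of 6 measured oxalate transport and glyoxylate genes SLC25A10, a mitochondrial dicarboxylate carrier, rose (log2 difference 0.38, SE 0.10, adjusted p = 0.031) and 5 were not called. SLC25A10 was not called without TN A, TN B, COM A, COM B or COM C (adjusted p up to 0.21). Of 13 mineralization regulators BMP2 and ANKH fell, SPP1 rose and 10 were not called. BMP2, a bone morphogenetic protein, was at 11.2, 11.5, 9.88 and 15.2 CPM in TN A to D, against 26.5, 27.7, 14.03 and 19.8 CPM in COM A to D. COM C lay within the TN range. BMP2 differed by -0.86 (SE 0.19, adjusted p = 0.0094) and was not called without TN A or COM A (adjusted p up to 0.065). ANKH, an exporter of the mineralization inhibitor pyrophosphate, differed by -0.26 (SE 0.075, adjusted p = 0.04) and was not called without TN A, TN B, COM A or COM B (adjusted p up to 0.21). SPP1, osteopontin, a secreted protein that binds calcium crystals, was at 1.06, 18.2, 0.228 and 1.03 CPM in TN A to D, against 0.644, 0.931, 0.116 and 0.318 CPM in COM A to D. The TN mean rests on TN B, the library with the liver transcripts. The log2 difference was 3.19 (SE 0.83, adjusted p = 0.026) with TN B and 0.69 without it (adjusted p = 0.61), and SPP1 was not called without TN B, COM A, COM B or COM C (adjusted p up to 0.61).

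The largest falls outside these lists were AKAP12, RASA4, FAM131B and BCL2A1. AKAP12, a scaffold for protein kinases A and C (chromosome 6, 151239999 to 151358557, plus strand), was at 19.1, 19.8, 10.4 and 38.8 CPM in TN A to D, against 76.2, 80.1, 17.9 and 59.8 CPM in COM A to D. COM C lay within the TN range and the other COM libraries above it. It differed by -1.40 (SE 0.21, adjusted p = 0.0016). RASA4, a calcium-triggered inhibitor of RAS that has a near-identical copy and is uncertain for that, differed by -1.32 (SE 0.22, adjusted p = 0.0021). FAM131B differed by -1.24 (SE 0.20, adjusted p = 0.002). These 3 were called with any library left out, at adjusted p of at most 0.018, 0.024 and 0.021. BCL2A1, an NF-kB-induced survival protein of the BCL2 family, differed by -1.14 (SE 0.24, adjusted p = 0.0089) and was not called without COM A (adjusted p up to 0.056). Among the largest rises, ABCC2, an export pump for conjugated compounds (chromosome 10, 99782640 to 99852594, plus strand), was at 14.2, 17.8, 33.5 and 11.5 CPM in TN A to D, against 7.80, 7.14, 19.9 and 8.49 CPM in COM A to D. Within each library set TN was above COM, but COM C exceeded 3 of the TN libraries, so the pooled groups overlapped. ABCC2 differed by 0.85 (SE 0.13, adjusted p = 0.0015). CLSPN, claspin, which signals stalled replication forks (chromosome 1, 35720218 to 35769967, minus strand), was at 29.8, 27.6, 18.5 and 22.9 CPM in TN A to D, against 13.6, 14.1, 13.9 and 15.6 CPM in COM A to D, without overlap, and differed by 0.79 (SE 0.14, adjusted p = 0.0031). ANKRD2, a stretch-responsive protein best known in muscle, was at 20.9, 24.9, 18.9 and 19.3 CPM in TN A to D, against 11.8, 11.4, 14.3 and 14.6 CPM in COM A to D and differed by 0.70 (SE 0.12, adjusted p = 0.002).

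NOP56, a component of the ribosomal RNA methylation particles, was at 221, 209, 149 and 161 CPM in TN A to D, against 102, 105, 143 and 133 CPM in COM A to D. It differed by 0.64 (SE 0.12, adjusted p = 0.0051), with 1.06, 0.063 and 0.28 within library sets 1, 2 and 3 (adjusted p = 0.016 for dependence on set). TEDC2, a tubulin and centriole protein, differed by 0.62 (SE 0.11, adjusted p = 0.0034), SPC25, a kinetochore subunit, by 0.63 (SE 0.12, adjusted p = 0.0052), MYBL2, a cell cycle transcription factor, by 0.62 (SE 0.11, adjusted p = 0.0035) and SKA3, which couples kinetochores to microtubules, by 0.57 (SE 0.11, adjusted p = 0.004). These, with ABCC2, CLSPN, ANKRD2 and NOP56, were called with any library left out, at adjusted p between 0.014 for ABCC2 and 0.041 for SPC25. CAVIN2, a coat protein of caveolae, differed by 0.63 (SE 0.14, adjusted p = 0.01) and was not called without COM B (adjusted p up to 0.057). ESCO2, which acetylates cohesin in S phase, differed by 0.65 (SE 0.15, adjusted p = 0.014) and was not called without TN A, COM A or COM B (adjusted p up to 0.099). RBL1, a pocket protein that binds E2F factors, differed by 0.53 (SE 0.11, adjusted p = 0.0078) and was not called without TN A or COM A (adjusted p up to 0.073). EIF3CL, a copy of the initiation factor gene EIF3C and uncertain for that, differed by 0.998 (SE 0.29, adjusted p = 0.044) and was not called without TN A, TN B, COM A, COM B or COM D (adjusted p up to 0.17). DHRS2, a short-chain dehydrogenase, was at 38.6 CPM in TN B and below 1.5 CPM in the other 7, and without TN B it differed by 0.26 (adjusted p = 0.78).

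Placed against the untreated cells, genes called between the forms differed in which form departed from Control. With the library set in the model, 1896 genes were called for TN against Control (11.7%; 1107 higher and 789 lower) and 1029 for COM against Control (6.36%; 638 higher and 391 lower). For MMP10 the log2 difference from Control was -1.09 for TN (SE 0.28, adjusted p = 0.011) and 0.84 for COM (SE 0.25, adjusted p = 0.045). For SPRR2A it was -0.15 for TN (SE 0.21, adjusted p = 0.7) and 1.09 for COM (SE 0.20, adjusted p = 0.0011) and for LAMB3 -0.22 for TN (SE 0.11, adjusted p = 0.22) and 0.45 for COM (SE 0.11, adjusted p = 0.014). PLAT and EGR1 differed from Control with TN instead, at -0.70 for TN (SE 0.12, adjusted p = 0.00045) and 0.082 for COM (SE 0.12, adjusted p = 0.77) for PLAT and -0.69 for TN (SE 0.16, adjusted p = 0.0062) and 0.11 for COM (SE 0.16, adjusted p = 0.76) for EGR1. Among the genes higher with TN, RRM2 was at 0.42 for TN (SE 0.086, adjusted p = 0.0021) and -0.081 for COM (SE 0.086, adjusted p = 0.66), CCNB1 at -0.032 for TN (SE 0.061, adjusted p = 0.79) and -0.38 for COM (SE 0.062, adjusted p = 0.00028) and UHRF1 at 0.083 for TN (SE 0.089, adjusted p = 0.6) and -0.43 for COM (SE 0.091, adjusted p = 0.0042). Both comparisons share their Controls, so values are set side by side and no overlap between them is given.

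**Figure D4:**
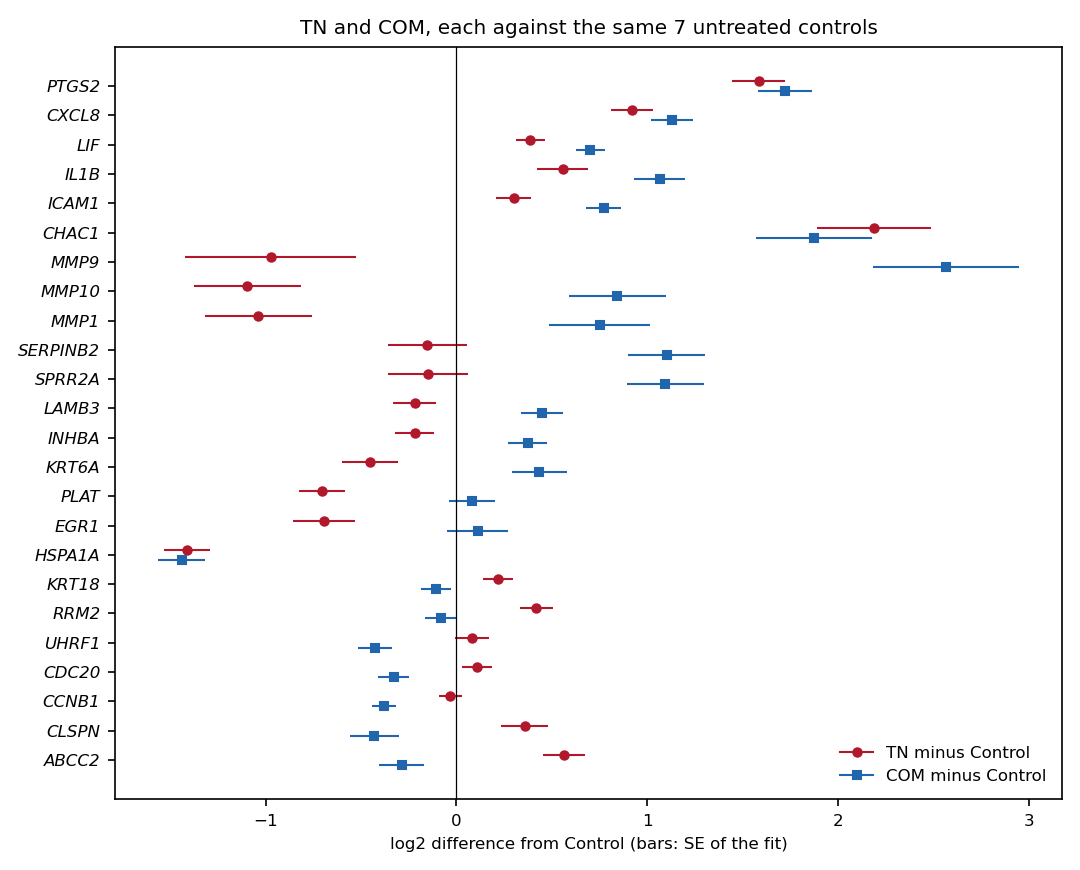
Log2 difference from the 7 Control libraries for 24 genes, as points with bars of 1 SE from the edgeR fit, TN in red and COM in blue. PTGS2 lies at 1.58 for TN and 1.72 for COM, while MMP9 lies at -0.97 for TN and 2.56 for COM.

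Over the 44 gene lists, 30 had at least 1 called member and 14 had none. Among all genes tested, 2.62% were called higher with TN and 2.41% lower. The lists without a call were endoplasmic reticulum chaperones (16 measured), antimicrobial and alarmin genes (12), interferon-stimulated genes (21), p53 targets (22), cholesterol synthesis (20), nuclear oxidative phosphorylation genes (23), mitochondrially encoded transcripts (13), cytosolic ribosomal proteins (24), serine and one-carbon metabolism (14), zinc and metal response (4), histone transcripts without poly(A) (7), nuclear and unspliced RNA (7), and fibroblast (5) and endothelial (2) markers. Their medians ran from -0.17 for antimicrobial genes to 0.18 for serine and one-carbon metabolism. Of 23 hypoxia and glycolysis genes HK2 and NDRG1 fell and 21 were not called. HK2, which phosphorylates glucose in its first step, averaged 246 ± 43.2 CPM with TN and 313 ± 29.03 CPM with COM (SD, n = 4 each), differed by -0.36 (SE 0.076, adjusted p = 0.0075) and was not called without TN A or COM B (adjusted p up to 0.062). NDRG1, a hypoxia-induced stress gene, differed by -0.53 (SE 0.14, adjusted p = 0.031) and was not called without TN A, TN B, TN D, COM A or COM B (adjusted p up to 0.19). Of 16 YAP and TAZ targets AJUBA, a LIM protein of cell junctions, rose and 15 were not called. AJUBA differed by 0.41 (SE 0.089, adjusted p = 0.0091) and was not called without TN A or COM A (adjusted p up to 0.074). Of 11 fatty acid genes ACSS2, which makes acetyl-CoA from acetate, fell and 10 were not called. ACSS2 differed by -0.43 (SE 0.11, adjusted p = 0.023) and was not called without TN A, TN B, COM A or COM B (adjusted p up to 0.16).

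**Figure D5:**
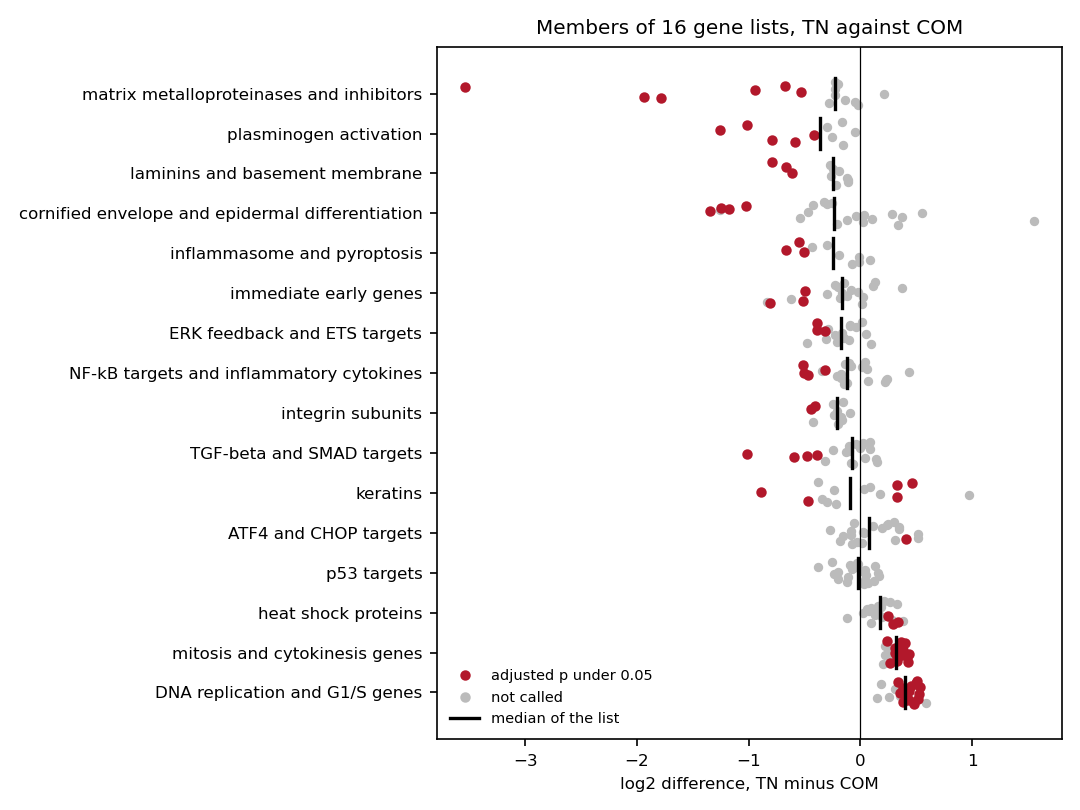
Log2 difference between TN and COM for each measured member of 16 gene lists, in red where the adjusted p was under 0.05 and in grey where it was not, with the list median as a bar. Replication and mitosis genes lie to the right of 0, with medians of 0.40 and 0.32, and the called metalloproteinase, plasminogen and laminin genes lie to the left.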

How the data were processed

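Polyadenylated RNA was sequenced. The authors deposited expected counts per gene, 1 table per library, beside lengths and length-scaled units, as the file headers show. Of these, the expected counts were used, and the effective lengths to obtain each library's mean fragment length. Per the submitters' processing notes, Bowtie2, RSEM and Trim Galore were used with GRCh38. No source used here gives versions, the annotation release or the strand setting. RSEM splits reads between similar genes, so near-identical copies are uncertain, and so are genes that overlap on opposite strands.

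After rounding of the deposited expected counts, in edgeR 4.0.16 (R 4.3.3), filterByExpr over the 6 groups chose the genes to test. After TMM scaling, all 27 libraries were fitted by quasi-likelihood with a mean per group and a term for library set (runs of serial numbers of 10, 12 and 5 libraries). Genes with a Benjamini-Hochberg adjusted p under 0.05 over the 16173 tested were called. Differences are TN minus COM on the log2 scale with the SE of the fit. CPM are scaled to TMM-adjusted library sizes, with the SD over libraries. On simulated counts of 15973 genes, 100% of 100 genes changed by a log2 of 1 and 75% of 100 changed by 0.5 were recovered, with 8 of 15773 unchanged genes called. The simulated counts held no difference between library sets and no library like TN B, and the changed genes averaged 5 CPM or more. These rates therefore do not carry over to the real libraries. Coordinates are those of GENCODE 29 on GRCh38, matched for 15988 of the 16173 genes.

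The genes compared, the 44 lists and the alternatives were chosen with earlier results of these data known. Genes named by rule were the 12 that rose most and the 12 that fell most, if called, averaging 5 CPM or more and moving 1 way in all 3 library sets, then up to 3 called members per list, 16 fixed genes, and markers of other cell types reaching 10 CPM. The first step was also applied to the fit without TN B, a choice made after the data were seen. Not every gene selected is described, and some selected genes are not reported here. Other list members were named after their values were seen. Alternatives were DESeq2 1.42.0, other scalings and filters, models without the set term or with the letters as blocks, single sets, and leaving out each library.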

Additional observations from a re-analysis of the deposited data

Results flagged for a closer look

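Of 236 groups of 4 libraries examined for a library far from the other 3, 25 had one. Chance flags about 5% of groups, but this rate cannot be set against the count, since 9 of the genes (LYZ, TF, FGG, AHSG, APOB, APOA1, AMBP, ALB and APOA2) were examined because they reached 10 CPM in TN B alone. TN B accounted for 11 of the 25. In CPM it was at 18.2 for SPP1, 38.6 for DHRS2, 58.6 for LYZ, 234 for TF, 16.6 for FGG, 138 for AHSG, 121 for APOB, 53.2 for APOA1, 58.1 for AMBP, 659 for ALB and 46.96 for APOA2, above the other 3 TN libraries each time. COM C stood apart from the other COM libraries, low for PLAT (510.5 CPM) and high for KRT5 (2731 CPM), TPX2 (186 CPM), AJUBA (109 CPM), SKA3 (17.7 CPM), MYBL2 (81.3 CPM) and ABCC2 (19.9 CPM). COM C is the only COM library of set 2, and this search took no account of set. For PLAT the set 2 Controls were also low, at 564 to 671 CPM against 747 to 1070 CPM in sets 1 and 3. TN C, of set 2, was the highest TN library for KRT5, AJUBA and ABCC2. It was not the highest for TPX2, SKA3 and MYBL2, nor the lowest for PLAT. TN D was high among the TN libraries for PLAT (766 CPM), LOXL2 (38.4 CPM) and F11R (383 CPM), and TN A was low for ACTA2 (6.74 CPM). COM D was high for KRT14 (77.8 CPM) and ALB (2.97 CPM), and COM B was low for FKBP4 (131 CPM).

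The TN minus COM difference depended on library set for the 7 genes below, by a joint edgeR test of the difference between sets adjusted over all genes tested. The adjusted p was 0.027 for MMP9, 0.027 for MMP10, 0.043 for MMP1, 0.038 for LAMA3, 0.043 for NDRG1, 0.015 for ITGB4 and 0.016 for NOP56. In all 7 the difference was largest in set 1, which holds 2 libraries of each form, while sets 2 and 3 hold 1 each. Within sets 1, 2 and 3 the log2 difference was -2.96, -0.24 and -1.29 for MMP1, -0.91, 0.082 and -0.12 for ITGB4 and -1.01, 0.27 and -0.38 for NDRG1.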

How the results depend on the processing

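The 814 genes called between TN and COM became 803 with DESeq2 size factors, 853 with upper-quartile scaling, 1216 with the DESeq2 test, 1164 with no filter and 860 with a filter of 1 CPM in 4 libraries, within a factor of 1.5. No library set term left 109 calls, of which 63.3% were higher, against 52.1% with the term. Placing TN C in set 1 gave 1649 calls and set 1 alone 990, of which 39.8% were higher. With the 8 libraries alone, edgeR with the set term called 9 genes (2420 at an unadjusted p under 0.05). The same 8 with letters as a replicate block gave 0 calls (2226 at a raw p under 0.05). With any single library removed there were 152 to 1708 calls. For TN against Control, 1896 calls became 695 without the set term, 1018 in set 1 alone and 745 to 2213 with 1 library left out. For COM against Control, 1029 became 543, 180 and 531 to 1111. The 30 genes whose difference depended on library set became 18 without TN B, and with TN C in set 1 that test was not run because TN would have no library in set 2. The causes were not tested. Nothing in the labels says that a letter marks a shared culture or day. Deviations of same-letter libraries correlated at 0.125 (A), -0.0622 (B), 0.219 (C) and 0.384 (D). TN A, C and D correlated best with the COM library of their own letter and TN B with COM D. That is a hint of pairing in the data that not every pair shows. For C and D the letter also marks library set 2 and set 3, so letter and set cannot be told apart there. The letters were not taken as pairs. Every scaling moved the median of all genes by under 0.02. Depth limits transcripts near 0, where a count of 0 allows up to 0.225 CPM.

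Of the 92 called genes named, none changed sign under another scaling, test or filter, or with the set term removed. The call was lost by 1 with each other scaling and with the DESeq2 test, by 6 with no filter, by 68 without the set term, and, of 86 measured, by 78 in the 8 libraries with set and by 86 with the block. TN minus COM differences that changed sign were as follows. No set term gave -0.0099 for HSPA1A. TN C in set 1 gave -0.15 for HSPA1A, -0.10 for FOXA1 and -0.0070 for CD24. Set 1 alone gave 0.024 for SERPINA1, -0.030 for TP63, -0.19 for HSPA1A and -0.059 for FOXA1. Set 2 alone gave 0.27 for NDRG1, 0.021 for NFKBIZ, 0.12 for EGR3, 0.082 for ITGB4, 0.040 for DSG3, 0.032 for ANKH, -2.11 for LYZ, -0.77 for TF, -1.08 for AHSG, -0.15 for APOB, -0.51 for AMBP and -1.31 for ALB. Set 3 alone gave -0.095 for CHAC2, -0.14 for LYZ, -0.20 for FGG, -0.028 for AHSG, -1.20 for APOB, -0.59 for APOA1 and -1.55 for ALB. Leaving out 1 library gave -0.058 to 0.10 for TP63, -0.16 to 0.0037 for EGFR, -0.44 to 4.89 for LYZ, -0.086 to 5.10 for TF, -0.47 to 6.54 for AHSG, -1.43 to 8.23 for APOB, -1.40 to 8.08 for APOA1, -1.30 to 9.13 for AMBP, -2.19 to 10.19 for ALB, -0.069 to 0.16 for HSPA1A, -0.030 to 0.11 for FOXA1, -0.25 to 0.019 for PTGS2 and -0.14 to 0.010 for COL1A1. LYZ, TF, AHSG, APOB, APOA1, AMBP and ALB changed sign without TN B.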

Other observations

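Liver transcripts outside the marker list were also present in TN B. The fetal albumin relative AFP was at 239 CPM, the growth factor IGF2 at 103 CPM, its binding protein gene IGFBP1 at 67.3 CPM and the protease inhibitor A2M at 86.1 CPM in that library. In the other 7 TN and COM libraries the highest levels were 1.33, 0.584, 0.318 and 1.43 CPM, in the same gene order. These genes were looked up after the marker values were seen.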
